A study of Mus musculus with 5 samples.

Results

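The regions described here carried trimethylated lysine 4 of histone H3 (H3K4me3) in Olig2cKO and in control gliomas, with no acetylated lysine 27 of histone H3 (H3K27ac) listed in either genotype and no Olig2 binding listed in control tumours. The members were chosen by presence or absence in the deposited peak lists. All peaks of the 4 histone lists that overlapped or touched were merged on chromosomes 1 to 19, which gave 89204 regions, and 6400 of them met the rule (7.17%, 95% interval 7.01 to 7.35). H3K4me3 of both genotypes was listed in 36777 regions, so the members were 17.4% (17.0 to 17.8) of these.

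The tumours were mouse brain gliomas induced with PDGFB, taken 25 days after the virus was injected, on a mixed C57Bl/6;129Sv;CD-1 background. Olig2cKO tumours carried floxed Olig2 and control tumours did not, and the other floxed alleles in the labels, P53 among them, are shared by both. H3K4me3 and H3K27ac were mapped by chromatin immunoprecipitation and sequencing (ChIP-seq) in each genotype, and Olig2 was analysed in control tumours, with 1 library per group. The source of Cre, the number of tumours behind a library and any pooling are not given in the sources used here, and the loss of Olig2 was not checked from these lists.

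H3K4me3 is placed at gene start sites, most often at CpG-rich promoters, and most active promoters also carry H3K27ac, which acetyltransferases such as p300 and CBP deposit. A promoter with H3K4me3 and without H3K27ac is often weakly used or silent. In stem and progenitor cells, developmental regulators can carry H3K4me3 together with H3K27me3, the repressive mark of the Polycomb complexes, a state called poised or bivalent. H3K27me3 was not analysed here, and gene positions on mm9, the build of the files, were not used here. Whether a member is a promoter, and whether it is poised, was therefore not checked, and members are given by their position on mm9, counted from 1.

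The lists held 48885 H3K4me3 peaks in Olig2cKO and 44676 in control tumours, and 69365 H3K27ac peaks in Olig2cKO and 56600 in control tumours. The Olig2 list held 39201 peaks. Read depth is unknown for all lists, so the absence of a peak means that none was listed at the authors' threshold, not that the mark was absent. Intervals cover counting error over regions only, neighbouring regions are not independent, and with 1 library per group no difference between genotypes has a replicate check. No test was made for the same reason.

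Absence of acetylation was frequent among H3K4me3 regions without Olig2. Of the 15046 regions with H3K4me3 of both genotypes and no Olig2 peak, 6400 had no H3K27ac in either (42.5%, 41.7 to 43.3), 5938 had it in both, 1876 in Olig2cKO tumours only and 832 in control tumours only. Olig2 itself lay in 2398 of the 8798 regions without H3K27ac (27.3%, 26.3 to 28.2) and in 17287 of the 23225 regions with H3K27ac of both genotypes (74.4%, 73.9 to 74.99). The acetylated regions are wider and so have more room to touch an Olig2 peak. Without H3K27ac the median region width was 1058 bp without Olig2 and 1227.5 bp with it. With H3K27ac of both genotypes it was 2157 bp without Olig2 and 2705 bp with it. The part of width was not tested. H3K4me3 regions of 1 genotype only, again without H3K27ac and Olig2, numbered 4210 in Olig2cKO and 968 in control tumours. The Olig2cKO list of H3K4me3 is the longer, and the matching counts over all H3K4me3 regions are not given here. These counts are therefore no result about regions without acetylation. The member count rests on where the H3K27ac and Olig2 lists end. When only the upper 50% of those lists by score counted as present, 13275 regions met the rule.

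The members were mostly of middle or low strength. The score that the authors' peak caller gave each peak is not scaled between libraries, so it is read here only inside its own list. Member scores had a median of 286.6 in the Olig2cKO list, with quartiles of 145.6 and 524.2, and the median member stood at the 46.4 percentile of that list. In the control list the median was 191.8, with quartiles of 99.7 and 414.2, at the 35.03 percentile. Both peaks lay in the lower 50% of their lists at 3354 members (52.4%) and in the upper 50% at 1743 (27.2%). Regions marked in 1 genotype only were weaker still. Their median score was 88.9 for the Olig2cKO-only regions in the Olig2cKO list and 72.1 for the control-only regions in the control list.

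**Figure D1:**
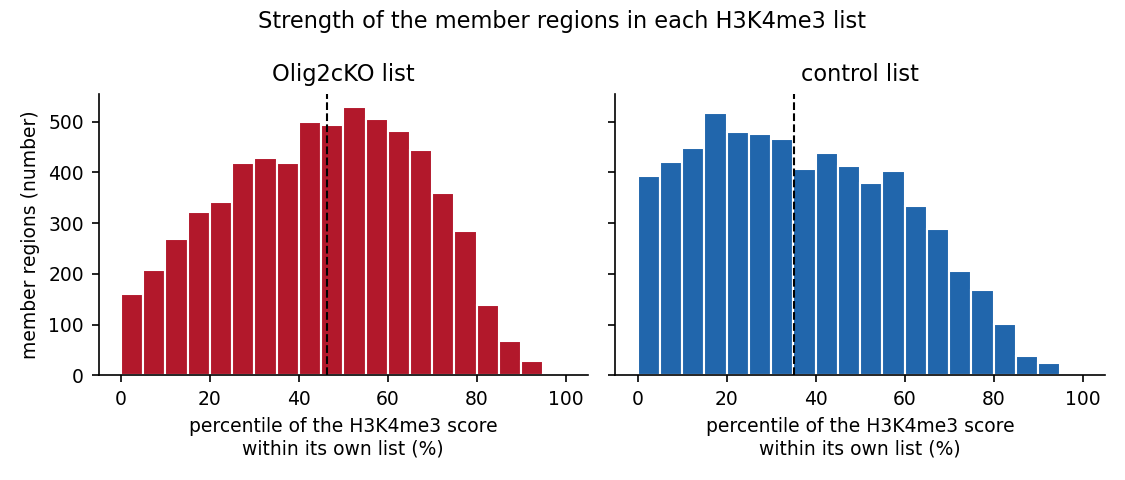
Number of member regions (y axis) by the percentile of their H3K4me3 score within the Olig2cKO list (left) and the control list (right), in classes 5 percentile points wide, with the median as a dashed line. The medians are 46.4 in the Olig2cKO list and 35.03 in the control list, and few members lie above 90 in either.

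The share of regions without acetylation was lower at stronger and at wider H3K4me3. Regions were ranked by the lower of their percentiles in the 2 lists. In the lowest of 10 classes 55.2% (52.9 to 57.5) of 1871 regions were members, in the class from 50 to 60 it was 44.1% (41.7 to 46.5) of 1656, in the class from 80 to 90 it was 11.7% (9.74 to 14.0) of 928, and in the highest 3.15% (1.73 to 5.22) of 445. By the width of the wider H3K4me3 peak, members were 61.1% (59.7 to 62.6) of regions of 500 to 1000 bp and 16.0% (13.7 to 18.5) of those of 3000 to 5000 bp. Since a wide peak has more room to touch an H3K27ac peak, width and acetylation are not independent under the rule.

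**Figure D2:**
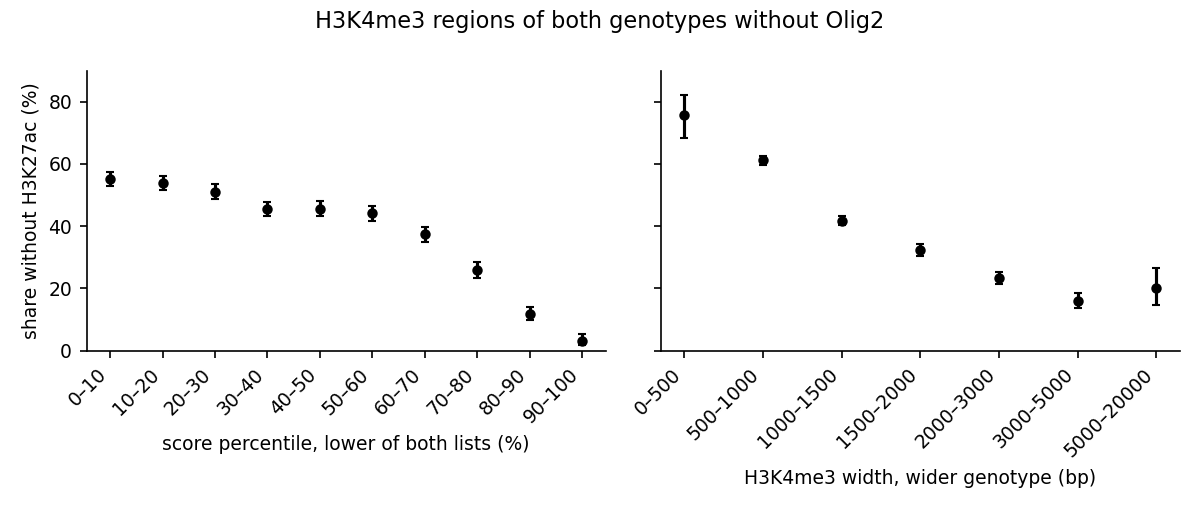
Share of H3K4me3 regions of both genotypes without Olig2 that had no H3K27ac in either genotype (y axis, %), by the lower score percentile of both lists (left) and by H3K4me3 width in bp (right). Points are shares and bars are exact 95% binomial intervals. The share is 55.2% in the weakest score class and 3.15% in the strongest.

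Only 14 members reached the upper 10% of both H3K4me3 lists. They were 1483 to 4790 bp wide, 7 of them lay at most 1 kb from an H3K27ac peak, and 3 lay more than 20 kb from one. The member with the highest rank was on chromosome 6 from 36337308 to 36340421. Its H3K4me3 peak scored 2329.47 and was 3075 bp wide in Olig2cKO tumours, and it scored 2268.37 and was 2952 bp wide in control tumours. The nearest H3K27ac peak was 14.6 kb away in Olig2cKO tumours and 29.1 kb away in control tumours. Over all members these gaps had medians of 10.6 kb in Olig2cKO and 12.9 kb in control tumours. The upper quartiles were 28.0 and 35.6 kb, so this strong and wide H3K4me3 peak was not unusually far from listed acetylation for a member.

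The next 4 members by rank differed in how isolated they were. The region on chromosome 4 from 116134475 to 116136363 scored 2050.54 in Olig2cKO and 2444.76 in control tumours, with H3K27ac 577 bp away and Olig2 184 bp away, so it is a member by a narrow gap. The region on chromosome 19 from 54188913 to 54190395 scored 2288.08 in Olig2cKO and 2117.34 in control tumours, and its nearest H3K27ac peak was 63.8 kb away. Of these 5, it was the farthest from H3K27ac. The region on chromosome 10 from 17775705 to 17777869 scored 1967.73 in Olig2cKO and 2331.31 in control tumours, with H3K27ac 10.98 kb away in Olig2cKO and 1.16 kb away in control tumours. The region on chromosome 14 from 35474279 to 35476127 scored 2138.03 in Olig2cKO and 2078.7 in control tumours, with H3K27ac 10.06 kb away.

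Members were narrow. The merged regions had a median width of 1058 bp, with quartiles of 819 and 1409 bp, and ranged between 222 and 8125 bp. The median was 1227.5 bp for regions with Olig2 and no H3K27ac, and 2157 bp for regions with H3K27ac of both genotypes and no Olig2, which the acetylated peaks lengthen. The H3K4me3 peaks alone, at regions with 1 peak per genotype, had a median of 1006 bp in Olig2cKO and 801 bp in control tumours at the members. At regions with H3K27ac of both genotypes and no Olig2 these medians were 1382 bp in Olig2cKO and 1170 bp in control tumours.

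Of the 5 widest members, 4 scored low in the Olig2cKO list, at most at its 29.4 percentile. The widest, on chromosome 18 from 5592688 to 5600812, was 8123 bp wide with a score of 54.45 in Olig2cKO tumours, and 6941 bp wide with a score of 466.44 in control tumours. These scores stood at the 2.60 percentile of the Olig2cKO list and the 57.3 percentile of the control list. The region on chromosome 15 from 59480950 to 59488470 was alike, at the 1.68 percentile in Olig2cKO and the 50.6 percentile in control tumours. On chromosome 11 from 101749004 to 101756659 the mark was listed as 2 peaks in Olig2cKO tumours and as 1 peak of 7656 bp in control tumours. The other two of the 5 widest lay on chromosome 10 from 92624133 to 92631674, 7542 bp wide in Olig2cKO and 5445 bp in control tumours, and on chromosome 4 from 102241157 to 102248620, 6678 bp wide in Olig2cKO and 7464 bp in control tumours. All 5 lay 5.93 to 9.37 kb from the nearest H3K27ac peak.

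The comparison of genotypes asked whether H3K4me3 without acetylation looked alike in Olig2cKO and control tumours. Since the rule asks for H3K4me3 of both genotypes in 1 merged region, that the peaks coincide is no finding, and how their edges lie is described here. At the 6159 members with exactly 1 peak per genotype (96.2% of members), the peaks overlapped by at least 50% of the shorter in 6144 cases, and their centres lay a median of 57.5 bp apart. The control peak lay wholly inside the Olig2cKO peak at 3806 members (61.8%, 60.6 to 63.0), against 54.9% (52.8 to 56.9) of regions with Olig2 and no H3K27ac and 57.9% (56.6 to 59.2) of regions with H3K27ac of both genotypes and no Olig2. The reverse, the Olig2cKO peak inside the control peak, was found at 414 members (6.72%, 6.11 to 7.38), and the peaks were staggered at 1939. The Olig2cKO peak reached beyond the control peak by a median of 68 bp on the side of lower coordinates and 71 bp on the other. Gene orientation was not used, so these medians over members do not show whether a single peak extended alike on both sides.

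The listed H3K4me3 peak was wider in Olig2cKO tumours at most members. It was wider at 4976 of 6159 members (80.8%, 79.8 to 81.8), narrower at 1160 and equal at 23, against 76.8% of all 33169 H3K4me3 regions with 1 peak per genotype. Olig2cKO minus control, the width difference had a median of 163 bp (156 to 169). A ratio of at least 1.5, Olig2cKO over control, was reached at 1241 members (20.1%, 19.2 to 21.2), against 14.4% of all such regions. The ratio goes with the width of the control peak, and members are narrow. At control peaks of 500 to 750 bp it was reached at 26.4% (24.5 to 28.4) of members, 38.0% (34.6 to 41.4) of regions with H3K27ac of both genotypes and no Olig2, and 14.5% (11.6 to 17.7) of regions with Olig2 and no H3K27ac. In all 6 classes of control width the share was lower at members than at those acetylated regions. The intervals overlap in the other 5. Control width is also the divisor of the ratio, so these classes are tied to it. By the mean width of both genotypes the order was the reverse in all 6 classes, with intervals that overlap. At mean widths of 1000 to 1500 bp it was 16.6% (14.8 to 18.5) of members and 13.2% (11.7 to 14.9) of those acetylated regions. The order thus depended on which width was used. The opposite ratio was reached at 70 members (1.14%, 0.887 to 1.43), against 1.45%. Wider Olig2cKO peaks were thus frequent over all H3K4me3 regions of these libraries, not at the members alone. The Olig2cKO list was also the longer, with 48885 peaks against 44676 in the control list. With the Olig2cKO lists cut to the lengths of the control lists, the median difference was 177 bp and 82.6% of members were wider. The cut drops whole peaks and leaves the edges of the others as listed, so it cannot undo a shift in width. The part of read depth was not tested.

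Width and acetylation of the region were set beside this. The share of regions wider in Olig2cKO tumours was 76.3% (74.5 to 78.0) with Olig2 and no H3K27ac and 79.4% (78.3 to 80.5) with H3K27ac of both genotypes and no Olig2, an interval that overlaps that of the members. It was 90.2% (88.7 to 91.6) where H3K27ac was listed in Olig2cKO only and 65.6% (62.1 to 68.9) where it was listed in control only, both without Olig2. The members lay between these. Among regions of 750 to 1000 bp (mean of both genotypes), a ratio of at least 1.5 was reached at 23.5% (21.6 to 25.5) of members and 22.8% (20.3 to 25.4) of regions with H3K27ac of both genotypes, and the intervals overlap. It was reached at 13.1% (10.2 to 16.3) of regions with Olig2 and no H3K27ac, below both. The share wider in Olig2cKO in this width class was 83.1% (81.3 to 84.8) at members, 79.4% (76.8 to 81.7) at those acetylated regions and 77.7% (73.8 to 81.3) at those with Olig2. Among those of 500 to 750 bp the share wider in Olig2cKO was 77.8% (75.7 to 79.8) at members, against 73.0% (68.9 to 76.7) at regions with H3K27ac of both genotypes and 71.4% (67.1 to 75.4) at those with Olig2 and no H3K27ac.

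**Figure D3:**
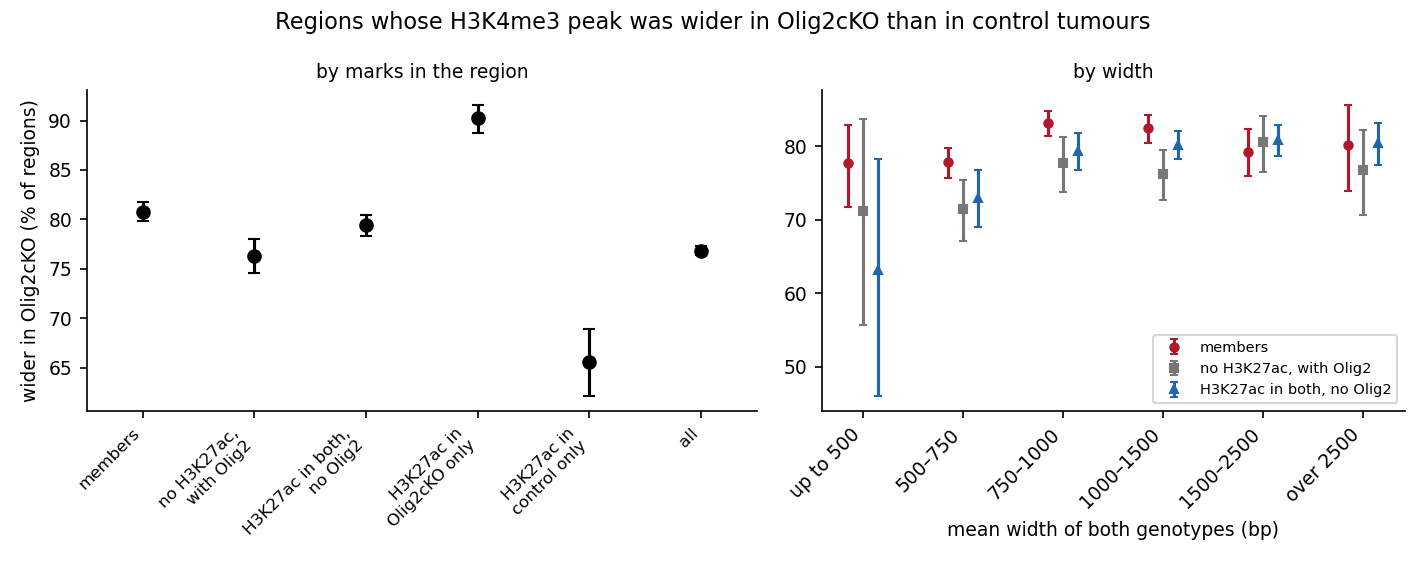
Share of regions whose H3K4me3 peak was wider in Olig2cKO than in control tumours (y axis, %), by the other marks in the region (left) and by the mean H3K4me3 width of both genotypes in bp (right, for 3 of the groups). Points are shares and bars are exact 95% binomial intervals, and the y axes do not start at 0. Members stand at 80.8%, between 90.2% where H3K27ac was listed in Olig2cKO only and 65.6% where it was listed in control only.

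Ranks were compared as well. Ranks over a shared set of regions are centred by construction, unlike widths, so their shares are not on the same scale as the width shares. When the 36777 regions with H3K4me3 of both genotypes were ranked by score in each list, the median member stood at the 33.0 percentile in Olig2cKO and the 29.1 percentile in control tumours. The rank was higher in Olig2cKO tumours at 3563 members (55.7%, 54.4 to 56.9), against 49.6% (49.1 to 50.1) of all 36777 regions, and the median rank difference was 1.56 percentile points. At regions with H3K27ac of both genotypes and no Olig2 the rank was higher in Olig2cKO tumours at 51.5% (50.3 to 52.8). At regions with Olig2 and no H3K27ac it was higher at 41.3% (39.3 to 43.3). Regions with H3K27ac in Olig2cKO only stood at 73.4% (71.3 to 75.4), and those with H3K27ac in control only at 36.5% (33.3 to 39.9).

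The mark was listed as several peaks in at least 1 genotype at 241 members. Control tumours had more peaks than Olig2cKO tumours at 225 members (3.52%, 3.08 to 4.00), against 7.43% of all 36777 H3K4me3 regions of both genotypes. At 223 of the 225 the region held 1 Olig2cKO peak and 2 control peaks. Olig2cKO tumours had more peaks at 11 members (0.172%, 0.0858 to 0.307), against 0.919% of all such regions. Splitting in control tumours was thus the more frequent kind over all regions, and both kinds were less frequent at the members than over all regions. Regions with Olig2 and no H3K27ac were like the members, at 3.79% (3.07 to 4.64) for the first kind and 0.292% (0.117 to 0.601) for the second. Over all regions an H3K27ac peak can join several H3K4me3 peaks into 1 merged region, which the rule excludes at members. The part of this was not tested.

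Among the 4257 members with 1 peak per genotype and scores of 100 or more in both, the largest width ratio was on chromosome 4 from 40420394 to 40422182. The peak there was 1789 bp wide in Olig2cKO and 344 bp in control tumours, a ratio of 5.20. H3K27ac lay 11.5 kb away in Olig2cKO tumours and 168.6 kb away in control tumours. On chromosome 6 from 147209939 to 147212703, with widths of 2765 bp in Olig2cKO and 664 bp in control tumours, H3K27ac was also nearer in Olig2cKO tumours, at 17.5 kb against 168.5 kb. The other three lay on chromosome 7 from 51565164 to 51567534 (ratio 4.72), chromosome 18 from 62483863 to 62485419 (4.46) and chromosome 16 from 10781647 to 10784642 (4.10). H3K27ac lay 3.68 kb away in Olig2cKO and 3.61 kb in control tumours for the region on chromosome 7, 37.8 kb and 56.5 kb for that on chromosome 18, and 1.57 kb and 0.707 kb for that on chromosome 16. It was thus nearer in Olig2cKO tumours at 3 of the 5 and nearer in control tumours at 2. Over all members it was nearer in Olig2cKO tumours at 56.4% and in control tumours at 43.4%, so these 5 show nothing of their own.

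The smallest ratio was 0.430, on chromosome 7 from 65913928 to 65917020, where the peak was 1318 bp wide in Olig2cKO and 3068 bp in control tumours. Its nearest H3K27ac peak was 371 bp away in Olig2cKO and 360 bp away in control tumours. On chromosome 13 from 112274634 to 112279441 the widths were 2099 bp in Olig2cKO and 4808 bp in control tumours, with an Olig2 peak 133 bp away. A pair of neighbours on chromosome 5 were both narrower in Olig2cKO tumours. These were 91568783 to 91570051, with 605 bp in Olig2cKO against 1240 bp in control tumours, and 91502300 to 91504512, with 1198 bp against 2213 bp. H3K27ac lay 24.4 and 28.4 kb from them in Olig2cKO tumours, against 3.64 and 7.16 kb in control tumours. The fifth, on chromosome 12 from 20995482 to 20996249, was 399 bp wide in Olig2cKO and 768 bp in control tumours, and lay 94.9 kb from H3K27ac in Olig2cKO and 67.7 kb in control tumours.

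The distance to acetylated chromatin varied widely among members. The gap to the nearest H3K27ac peak of either genotype had a median of 8.84 kb (8397 to 9211 bp), with quartiles of 2.45 and 23.5 kb. Regions with Olig2 and no H3K27ac were nearer, with a median of 4.95 kb and 31.2% (29.3 to 33.1) at most 1 kb away. For the members the median gap was 10.6 kb to the Olig2cKO list and 12.9 kb to the control list, and the Olig2cKO list is the longer. The nearest Olig2 peak was a median of 16.6 kb away, against 13.3 kb for regions with H3K27ac of both genotypes and no Olig2. At most 1 kb separated 1041 members (16.3%, 15.4 to 17.2) from H3K27ac and 452 (7.06%, 6.45 to 7.72) from Olig2.

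**Figure D4:**
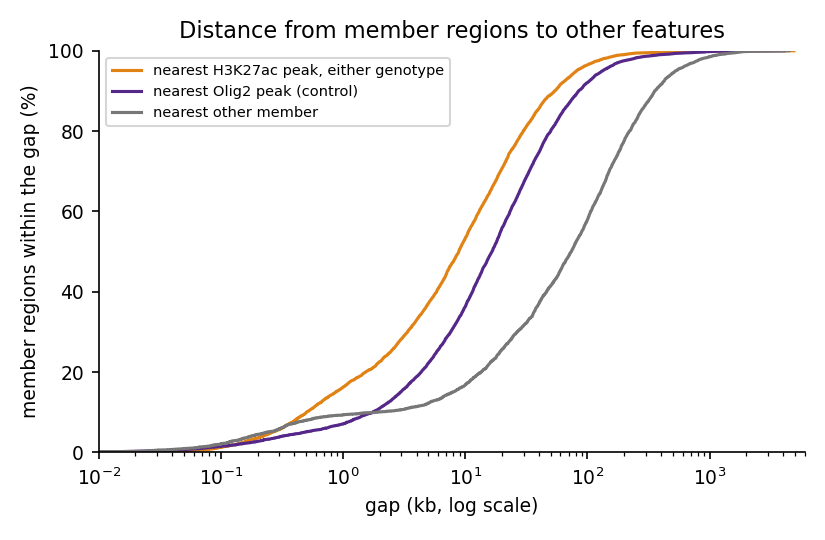
Cumulative share of member regions (y axis, %) by the gap in kb (log scale) to the nearest H3K27ac peak of either genotype, the nearest Olig2 peak of control tumours and the nearest other member. The medians are 8.84 kb, 16.6 kb and 73.9 kb in this order, and the curve for other members is almost flat between 1 and 5 kb.

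The members closest to acetylation were wider and stronger than the others. The 1041 members at most 1 kb from H3K27ac had a median region width of 1373 bp and median scores of 354.6 in the Olig2cKO list and 314.7 in the control list. The 1335 members at 1 to 5 kb had 1060 bp, 245.0 in the Olig2cKO list and 169.0 in the control list. Beyond that distance the median width changed little, with 1006 bp at 5 to 20 kb, 1016.5 bp at 20 to 100 kb and 993 bp over 100 kb. Median scores in these 3 classes were 271.7, 315.9 and 290.2 in the Olig2cKO list, above those at 1 to 5 kb. In the control list they were 172.8, 189.4 and 168.0. The contrast in strength with the farther classes was thus smaller in the Olig2cKO list. The share wider in Olig2cKO tumours was 80.9% (78.3 to 83.3) in the nearest class and 83.6% (78.0 to 88.2) over 100 kb, with intervals that overlap. A width ratio of at least 1.5 was reached at 14.7% (12.5 to 17.0) of the nearest class, 19.7%, 21.0% and 22.3% of the next 3, and 25.1% (19.5 to 31.4) over 100 kb, where the end classes do not overlap. The median control peak was 1102 bp wide in the nearest class and 716 bp over 100 kb, and its part in this order was not tested.

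The edge of the rule ran through regions that differ by few bases. The member nearest to H3K27ac, on chromosome 5 from 78068370 to 78069161, was 11 bp from an Olig2cKO peak, and the next 4 were 14 to 18 bp away. In all, 82 members lay at most 100 bp from H3K27ac. Just outside, the non-member with the least overlap was on chromosome 1 from 121903204 to 121905627, where 24 bp of Olig2cKO H3K27ac overlapped H3K4me3. The next 4 overlapped by 33 to 39 bp. An overlap of at most 100 bp was found at 16 of the 8646 non-members with H3K4me3 of both genotypes and no Olig2.

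At the other end, 225 members (3.52%, 3.08 to 4.00) lay more than 100 kb from any H3K27ac peak, and 35 of these were on chromosome 14. The 5 farthest members all lay near the start of chromosome 14, where the first H3K27ac peak began at 7937995. Ahead of it stood 15 members among 20 merged histone regions, between 3048722 and 7859874, with 1 Olig2 peak. They were 248 to 1493 bp wide with a median of 548 bp. Their scores ran between 64.46 and 453.68 in the Olig2cKO list and between 58.63 and 760.32 in the control list. At 13 of 15 the peak was wider in Olig2cKO tumours, against 80.8% of all members with 1 peak per genotype. The farthest, at 3048722 to 3050214, was 4887.78 kb from H3K27ac and was 1241 bp wide in Olig2cKO and 424 bp in control tumours. The stretch was chosen after the values were seen, and since it ends where H3K27ac begins, no region in it could be acetylated.

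Members were spread over all 19 chromosomes in step with H3K4me3. Their share of the H3K4me3 regions of both genotypes without Olig2 lay between 38.0% (34.3 to 41.9) on chromosome 15 and 45.2% (40.7 to 49.8) on chromosome 19, with counts of 217 members on chromosome 19 to 527 on chromosome 2. The intervals of these 2 chromosomes overlap. Windows of 1 Mb with a member numbered 1840, with a median of 3 members, and 36 windows held 10 or more.

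Close pairs were common. Another member lay at most 1 kb away at 597 members (9.33%, 8.63 to 10.1), and between 1 and 5 kb away at only 190 (2.97%, 2.57 to 3.41). Regions with H3K27ac of both genotypes and no Olig2, counted against their own kind, gave 7.04% (6.40 to 7.72) and 2.80% (2.39 to 3.25). Any other H3K4me3 region of both genotypes lay at most 1 kb from 22.0% (21.0 to 23.0) of members. The same held at 19.5% (18.5 to 20.6) of those acetylated regions and 34.3% (32.4 to 36.3) of regions with Olig2 and no H3K27ac. Close spacing was thus not particular to the members. The median gap to the next member was 73.9 kb, and that between the acetylated regions was 75.6 kb. Merging peaks up to 1 kb apart left 4979 members. That merge also joins members to H3K27ac peaks within 1 kb, which 1041 members had, so 4979 does not measure close pairs.

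The window with most members was on chromosome 18 from 37000001 to 38000000. It held 25 members among 52 H3K4me3 regions of both genotypes without Olig2 (48.1%, 34.0 to 62.4), with a median gap of 6.16 kb from a member to the next. None of the 25 lay within 1 kb of H3K27ac, although the window held 35 H3K27ac peaks in Olig2cKO and 30 in control tumours. H3K4me3 widths were alike in the genotypes here. At 23 members with 1 peak per genotype the median was 1104 bp in Olig2cKO and 1110 bp in control tumours, and 12 were wider and 11 narrower in Olig2cKO tumours. Scores ran between 73.82 and 1307.92 in the Olig2cKO list and between 57.82 and 1022.13 in the control list.

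**Figure D5:**
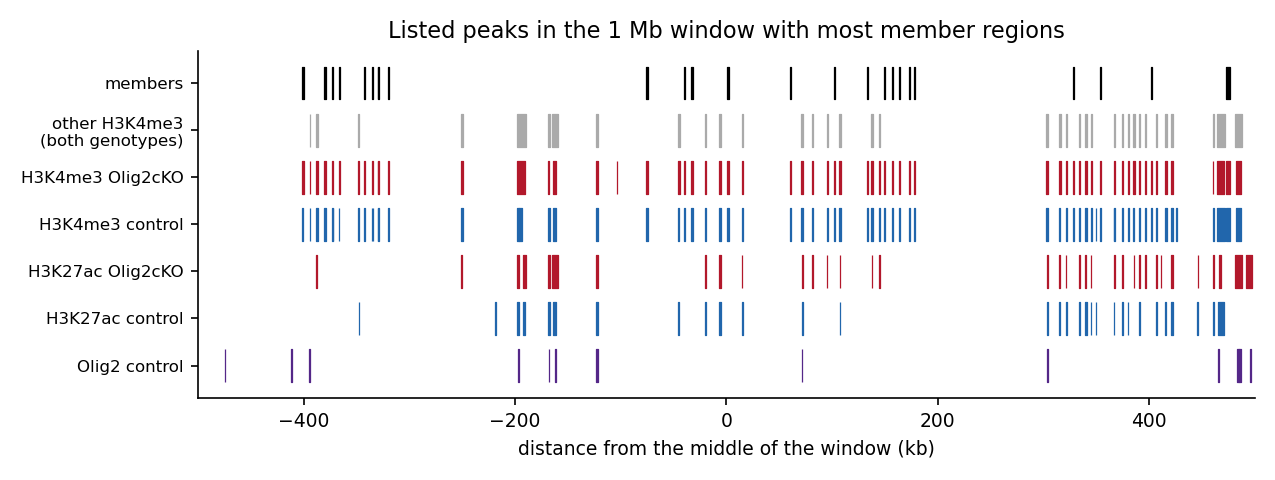
Peaks listed in the 1 Mb window of chromosome 18 with most members, by distance in kb from the middle of the window (x axis), with a row for the members, for the other H3K4me3 regions of both genotypes and for each list. Bars span the listed peaks. The 25 members fall in several groups, and the window also holds 35 Olig2cKO and 30 control H3K27ac peaks, which by the rule lie outside the members.

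The next 4 windows held 17, 15, 15 and 15 members. On chromosome 10 from 79000001 to 80000000, 17 of 31 H3K4me3 regions of both genotypes without Olig2 were members, and the window was rich in acetylation, with 86 H3K27ac peaks in Olig2cKO and 75 in control tumours. On chromosome 11 from 94000001 to 95000000, 15 of 23 were members. On chromosome 13 from 56000001 to 57000000, 15 of 19 were members. On chromosome 19 from 59000001 to 60000000, 15 of 19 were members as well, and acetylation was sparse, with 16 H3K27ac peaks in Olig2cKO and 10 in control tumours. Of the members with 1 peak per genotype, 14 of 15, 10 of 14, 10 of 12 and 11 of 14 were wider in Olig2cKO tumours in these windows. The share was 80.8% over all members and 76.8% over all H3K4me3 regions with 1 peak per genotype.

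Uninterrupted runs of members, looked at after the values were seen, with no other merged histone region between them, were short. The 6400 members formed 5437 runs, and 4657 of these were single regions. Runs of 3 or more numbered 137 and held 457 members, and 11 runs held 5 or more. The longest, with 7 and 6 members, were on chromosome 14 from 4958704 to 6241032 and from 7258817 to 7859874, in the stretch ahead of the first H3K27ac peak. The others held 5 members each. The run on chromosome 6 from 52141568 to 52172281 spanned 30.7 kb, with members of 477 to 1292 bp, scores of 58.59 to 527.88 in the Olig2cKO list and 66.92 to 382.99 in the control list, and H3K27ac at least 31.7 kb away. The run on chromosome 1 from 78185426 to 78213063 reached scores of 1215.56 in the Olig2cKO list and 886.87 in the control list. All 5 of its members were wider in Olig2cKO tumours, against 80.8% of all members with 1 peak per genotype.

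Of the remaining runs of 5, one stood on chromosome 10 from 21867889 to 22022516 and spanned 154.6 kb. The run on chromosome 13 from 22072546 to 22099135 spanned 26.6 kb, with H3K27ac 5.04 to 19.1 kb away. That on chromosome 17 covered 85884157 to 86023010, and that on chromosome 19 covered 30557952 to 30625263. The run on chromosome 16 from 73097049 to 73368381 held Olig2 peaks between its members, 2 in all, and its scores reached 602.05 in the Olig2cKO list and 105.99 in the control list. In the chromosome 18 runs, from 37157205 to 37181142 and from 37648823 to 37678681, 1 of 4 and 2 of 5 members with 1 peak per genotype were wider in Olig2cKO tumours, against 3 to 5 of 4 or 5 in each of the other runs of 5. Both of these runs lie in the window with most members, so their members are among the 23 compared there and add no separate observation.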

How the data were processed

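ChIP-seq peak lists of 5 libraries were used, 1 per group. CASAVA, Bowtie2, MACS and the build mm9 are named per the submitters' processing notes. Their versions and settings, and whether an input was used, are not given here. Each list gives a start, an end and a score per peak. The deposited score is the authors' own. Its lowest value is close to 50 in every list, the value that a p of 1e-05 takes as its negative base 10 logarithm times 10. Read depth is unknown.

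Starts were counted from 1. Peaks that overlapped or touched were merged with numpy 2.4.6 (Python 3.11.15, pandas 2.3.3), and overlap means at least 1 bp. The same 6400 members were found with bedtools 2.31.1. The rule was tested on simulated lists. Region scores are the highest of a genotype's peaks. Widths were compared at regions with 1 peak per genotype. Intervals are exact (Clopper-Pearson, or order statistics for medians) at 95%, from scipy 1.17.1. Figures were drawn with matplotlib 3.10.9.

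Named regions were the 5 members highest by the lower score percentile, the 5 widest, the 5 with the largest and smallest width ratio, the 5 nearest to and farthest from H3K27ac, the 5 non-members with least overlap and the 5 fullest 1 Mb windows. Runs, close pairs, ranks, split peaks and the start of chromosome 14 were chosen after the values were seen. The members and lists were chosen with earlier results of these data known. Sequence and gene features of the members, which need mm9, were not analysed here. The full genotype is not reported here.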

Additional observations from a re-analysis of the deposited data

How the results depend on the processing

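The width comparison held its direction under all 12 alternatives, of which the one with 1 peak per genotype leaves it as it is by construction. All 12 keep the peak edges as listed and change only which peaks or regions count. None could therefore undo a width shift common to the whole lists. The share of members wider in Olig2cKO tumours ranged between 79.6% and 82.6%, and the median difference, Olig2cKO minus control, between 153 and 177 bp. With Olig2 regions kept these were 79.6% and 153 bp. With Olig2cKO lists cut to the length of the control lists, added after the data were seen, they were 82.6% (82.589) and 177 bp. Among members at least 20 kb from H3K27ac, also added later, the share was 82.64%. The number of members was 1875 at that distance and 13275 with the upper 50% of the H3K27ac and Olig2 lists, and between 4475 and 8798 under the other 10. Their share of H3K4me3 regions of both genotypes without Olig2 was 39.1% with peaks up to 1 kb apart merged, 38.9% with H3K4me3 scores of 100 or more, 52.4% with all histone peaks held to that score, 57.4% with the upper 50% of H3K27ac and Olig2, 35.6% and 39.5% without H3K27ac or Olig2 within 1 kb, 40.9% with 1 peak per genotype, 46.2% with lists of equal length and 12.5% at least 20 kb from H3K27ac. With Olig2 regions kept in members and total it was 23.9%. These changes follow from the alternatives' own construction, which drops or adds regions. CpG content and start sites, planned for an mm9 genome, were not run. No paired analysis was possible because each group has 1 library. No replicate could be left out for the same reason.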
